A study of Mus musculus with 80 samples.

Results

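The genes of hepatic de novo lipogenesis and its regulator SREBP-1 were followed through fasting as 10 genes, Srebf1, Acly, Me1, Acaca, Acacb, Fasn, Elovl6, Scd1, Thrsp and Pnpla3. They were the rows of the gene count table that carry these symbols, 10 of 78275 rows, each found once, and all 10 passed the filter on low counts that left 21187 genes. The series holds 80 liver transcriptomes of wild-type C57BL/6J mice, 8 to 12 weeks old. Control mice ate ad libitum throughout, whereas fasted mice lost their food at circadian time 10 (CT10) and did not get it back. The animals had 10 days of a light and dark cycle and were then kept in constant darkness. Sampling began at CT8 and went on at steps of 4 h until CT44, with 2 males and 2 females per treatment and time. The CT8 livers of the fasted series were therefore collected while those animals still had food. Each mouse was sampled once, so a time course joins different animals, and the p-values measure the spread between these animals.

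Lipogenesis turns carbohydrate into fatty acid in the cytosol of the hepatocyte. Citrate exported from mitochondria is split to acetyl-CoA, acetyl-CoA is carboxylated to malonyl-CoA, and fatty acid synthase builds palmitate at the cost of NADPH, after which elongases and desaturases finish the chain. Insulin and feeding raise transcription of these enzymes through SREBP-1c, glucose does so through ChREBP, and both signals are withdrawn when food is absent.

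The promoters below are shown because transcription of these genes is what SREBP-1 is known for, and because Srebf1 itself has several starts whose counts changed unequally (described further on). They run from 250 bases before to 50 after the start in RefSeq on GRCm38.p6 and are written 5′ to 3′ on the strand of the gene. Of the 10 genes, 9 had such a window, 12 windows in all, and Scd1 had none. Capitals mark CCAAT, the box bound by NF-Y, and TCACCC, each on either strand. TCACCC was chosen after the sequences had been seen.
Srebf1, downstream start, chr11:60210422-60210721, minus strand: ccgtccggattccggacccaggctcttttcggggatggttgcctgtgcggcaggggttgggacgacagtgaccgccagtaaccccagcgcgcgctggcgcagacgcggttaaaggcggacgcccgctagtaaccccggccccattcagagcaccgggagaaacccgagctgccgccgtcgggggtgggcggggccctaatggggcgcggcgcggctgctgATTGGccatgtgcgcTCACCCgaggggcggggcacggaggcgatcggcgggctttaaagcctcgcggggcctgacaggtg
Srebf1, upstream start, chr11:60220578-60220877, minus strand: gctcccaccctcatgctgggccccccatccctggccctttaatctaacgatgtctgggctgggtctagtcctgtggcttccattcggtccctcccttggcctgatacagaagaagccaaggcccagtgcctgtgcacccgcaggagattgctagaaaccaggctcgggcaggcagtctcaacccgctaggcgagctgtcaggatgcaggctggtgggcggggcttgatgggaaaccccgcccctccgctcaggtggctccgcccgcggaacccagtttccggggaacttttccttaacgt
Fasn, chr11:120824498-120824797, minus strand: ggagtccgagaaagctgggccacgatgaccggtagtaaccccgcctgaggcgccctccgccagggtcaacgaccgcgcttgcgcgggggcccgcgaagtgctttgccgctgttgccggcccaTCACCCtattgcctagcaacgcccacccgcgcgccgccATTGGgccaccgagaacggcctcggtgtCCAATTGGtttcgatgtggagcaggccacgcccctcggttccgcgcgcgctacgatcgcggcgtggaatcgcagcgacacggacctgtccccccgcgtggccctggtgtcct
Thrsp, chr7:97417501-97417800, minus strand: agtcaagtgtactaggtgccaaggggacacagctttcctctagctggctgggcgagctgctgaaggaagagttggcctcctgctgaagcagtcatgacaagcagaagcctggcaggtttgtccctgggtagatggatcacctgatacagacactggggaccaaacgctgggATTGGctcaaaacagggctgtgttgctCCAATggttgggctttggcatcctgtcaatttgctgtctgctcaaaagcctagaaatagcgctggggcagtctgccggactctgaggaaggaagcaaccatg
Pnpla3, chr15:84167566-84167865, plus strand: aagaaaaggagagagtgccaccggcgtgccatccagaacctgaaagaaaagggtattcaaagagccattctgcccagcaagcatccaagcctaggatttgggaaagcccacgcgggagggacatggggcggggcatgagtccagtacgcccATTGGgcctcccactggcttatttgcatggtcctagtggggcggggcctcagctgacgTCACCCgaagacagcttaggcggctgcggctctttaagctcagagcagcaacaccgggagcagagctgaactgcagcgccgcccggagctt
The downstream start of Srebf1 held 1 CCAAT and 1 TCACCC, and the upstream start held neither. Another Srebf1 window, still further upstream, held 1 CCAAT and is not shown. Fasn held 1 TCACCC and 3 CCAAT boxes, of which a pair shares bases in opposite directions, and Thrsp held 2 CCAAT boxes. Pnpla3 held 1 CCAAT and 1 TCACCC. Over all 32851 RefSeq windows of this length, 37.4% held a CCAAT and 16.2% a TCACCC. Of the 12 windows, 8 held a CCAAT and 4 a TCACCC, and those of Acaca and Elovl6 held neither. The longer sterol element TCACNCCAC and the E-box CACGTG were in none of the 12 windows, against 1.24% and 7.15% of all windows.

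The libraries held from 25534901 to 59927771 gene counts each (median 42303883). Treatment and sex were taken from the titles, whose sex differs from the detailed labels in 40 libraries and whose treatment differs in 40. The Y-linked genes Ddx3y, Eif2s3y, Kdm5d and Uty summed to 4020 to 9229 counts in the 40 libraries titled male and 0 to 24 in the 40 titled female, whose Xist counts were 24875 to 70879 against 1 to 91 in males. Thus 40 of 40 male and 40 of 40 female titles matched these genes. The fasting genes moved as the titles say: Fgf21, Pdk4 and Cpt1a rose in fasted livers, by 3.95 (SE 0.254), 2.20 (SE 0.170) and 1.46 (SE 0.0528) on the log2 scale in the mean of CT12 to CT44. Library control CT8 female 2 stood apart, with 31.3% of its counts on the ribosomal gene Rn18s-rs5 against at most 4.88% in the 79 others; without it the count of the 10 genes called was the same at every time. Hepatocyte markers summed to 57854 to 104034 CPM (counts scaled to library size by TMM) in control and 71031 to 125799 CPM in fasted livers, with 3 of 5 higher and 1 lower. Adipocyte markers, the other main site of lipogenesis, were near 0 (at most 2.57 CPM summed, with 3 of 5 at 0 in most libraries). Kupffer cell markers ran from 169 to 578 CPM in control and from 121 to 369.96 CPM in fasted livers, with 4 of 5 lower, and cholangiocyte markers from 5.53 to 20.1 CPM and from 3.05 to 18.1 CPM, with 3 of 4 lower. Of 4 stellate cell markers 3 were lower and 1 higher, and of 4 sinusoidal endothelial markers 2 were lower and 1 higher. The part of these cells in the results below was not tested. In whole liver, fewer cells of a type and less RNA per cell cannot be told apart.

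All 10 genes fell with fasting in the mean of CT12 to CT44, against 32.9% of all genes tested (edgeR quasi-likelihood test, Benjamini-Hochberg adjusted p under 0.05). Their median change was -2.42 on the log2 scale, and that of all genes was -0.02. The falls ranged widely, from -4.36 in Pnpla3 to -0.56 in Acacb. All log2 values that follow are fasted minus control unless another difference is named.

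**Figure D1:**
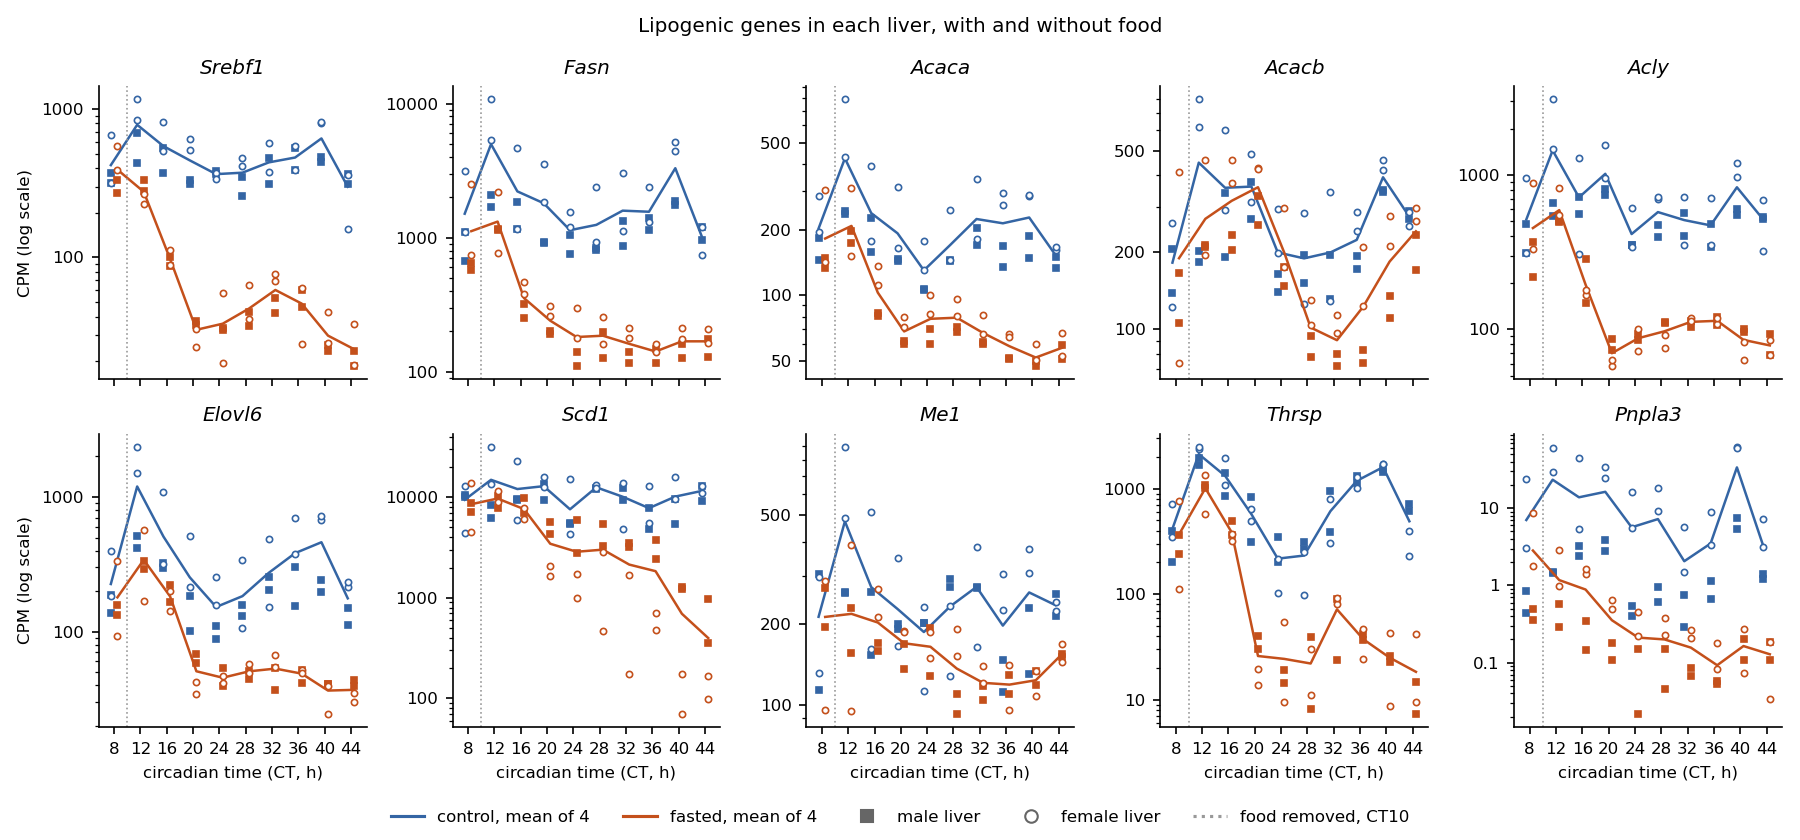
CPM of each lipogenic gene (log scale) against circadian time in hours, with 1 point per liver, squares for males, open circles for females and lines for the mean of 4 livers. The fasted lines run far below the control lines from CT20 on in most panels, Acacb meets its control line at CT20 and CT24, and Scd1 has overlapping points up to CT16 and again at CT24.

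Srebf1 (ENSMUSG00000020538, GENCODE M21 on GRCm38, chromosome 11, 60199089 to 60222581, minus strand) encodes SREBP-1, the factor that drives the lipogenic program. Before food removal, at CT8, its level was 371 and 315 CPM in the males and 668 and 317 CPM in the females of the control group, and 334 and 273 CPM in the males and 387 and 565 CPM in the females of the group about to be fasted. At CT12 the control livers had 687 and 433 CPM in the males and 1158 and 844 CPM in the females. The fasted livers, 2 h after food removal, had 279 and 333 CPM in the males and 265 and 228 CPM in the females. Every fasted liver was already below every control liver, and the groups did not overlap at any later time either. The fall at CT12 was -1.45 (SE 0.274, adjusted p = 0.00203). At CT16 fasted livers held 101 and 87.8 CPM in the males and 113 and 89.6 CPM in the females, and at CT20 37.3 and 34.9 CPM in the males and 25.1 and 32.9 CPM in the females, when their mean was 7.24% of control. The level then stood at 60.4 ± 15.8 CPM (SD, n = 4) at CT32 and at 4.71% of control at CT40. Over CT12 to CT44 the fall was -3.13 (SE 0.0973, adjusted p = 1.90e-29). Srebf1 shares 109 exon bases with Rai1 on the opposite strand, whose counts came to 7.89% of those of Srebf1, and the strand used in counting is not given in the sources used here.

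Acly and Me1 supply the precursors. Acly (chromosome 11, 100476353 to 100528000, minus strand) encodes ATP citrate lyase, which makes cytosolic acetyl-CoA, and Me1 (chromosome 9, 86581371 to 86695953, minus strand) encodes malic enzyme, a source of NADPH. Acly was at 815 and 744 CPM in the males and 1563 and 953 CPM in the females in control livers at CT20. In fasted livers it was at 85.9 and 73.1 CPM in the males and 57.8 and 63.1 CPM in the females, all 4 far below the lowest control. That was 6.87% of control and the deepest point of its course, with -3.84 (SE 0.357, adjusted p = 8.12e-12). At CT12 the Acly groups overlapped, at 41.0% of control, and the difference did not pass the test (adjusted p = 0.0992). Me1 changed little by comparison. Its fasted livers at CT32 had 118 and 105 CPM in the males and 140.2 and 121 CPM in the females, against 273 and 269 CPM in the males and 165 and 384 CPM in the females in control livers, and these groups did not overlap. It passed the test at 2 times, CT32 and CT40, with -1.18 (SE 0.348, adjusted p = 0.0137) and -1.0 (SE 0.347, adjusted p = 0.0184). In the mean of all times Acly fell by 2.41 and Me1 by 0.68 on the log2 scale.

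Acaca (chromosome 11, 84129672 to 84401651, plus strand) and Acacb (chromosome 5, 114146535 to 114250761, plus strand) encode the acetyl-CoA carboxylases. ACC1, from Acaca, makes the malonyl-CoA used for synthesis, whereas ACC2, from Acacb, sits at the mitochondrion, where its malonyl-CoA restrains fatty acid oxidation. Acaca was lower at each of the 9 times after food removal. The fall was -0.88 (SE 0.221, adjusted p = 0.0257) at CT12, smallest at CT24 with -0.73 (SE 0.221, adjusted p = 0.0117) and largest at CT40 with -2.08 (SE 0.229, adjusted p = 6.35e-10). At CT40 its control livers had 148 and 187 CPM in the males and 285 and 289 CPM in the females, and its fasted livers 47.6 and 50.1 CPM in the males and 50.5 and 60 CPM in the females, without overlap. Acacb did not pass the test in the first night without food. At CT20 control livers had 271 and 375 CPM in the males and 316 and 485 CPM in the females, and fasted livers 256 and 331 CPM in the males and 427 and 424 CPM in the females, and the groups covered each other. The difference there was -0.03 (SE 0.319, adjusted p = 0.971), with the fasted mean at 99.4% of control. Acacb passed the test only from CT28 to CT40, with its lowest share at CT32 (45.3% of control), and at CT44 it was again at 87.7% (adjusted p = 0.646).

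Fasn (chromosome 11, 120805846 to 120824547, minus strand) encodes fatty acid synthase, which assembles palmitate. Its control livers at CT12 held 2086 and 1688 CPM in the males and 10742 and 5387 CPM in the females, so that both females exceeded both males. Fasted livers at CT12 held 1158 and 1143 CPM in the males and 2197 and 764 CPM in the females, and 1 female among them overlapped the control males. From CT16 on the groups were separate at every time, and at CT40 control livers had 1862 and 1735 CPM in the males and 4397 and 5169 CPM in the females, against 161 and 126 CPM in the males and 175 and 212 CPM in the females in fasted livers. This was 5.11% of control, with -4.14 (SE 0.407, adjusted p = 3.77e-11).

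Elovl6 (chromosome 3, 129532355 to 129638495, plus strand), the elongase of palmitate, and Scd1 (chromosome 19, 44394455 to 44407879, minus strand), the desaturase that makes oleate, finish the chain. Elovl6 at CT40 was at 196 and 242 CPM in the males and 679 and 728 CPM in the females in control livers and at 41.1 and 41.0 CPM in the males and 39.3 and 24.5 CPM in the females in fasted livers. The fasted values, of which female 2 was the lowest, all lay below the lowest control, at 7.91% of control with -3.44 (SE 0.401, adjusted p = 2.37e-09). Scd1, the most abundant of the 10 genes per kb, was called lower from CT20 on. At CT16, 6 h after food removal, fasted livers had 9717 and 6902 CPM in the males and 6068 and 7799.9 CPM in the females, within the spread of the control livers at 9656 and 9464 CPM in the males and 5937 and 23166 CPM in the females. The difference was -0.64 (SE 0.493, adjusted p = 0.399). At CT44 it was at 9119 and 13048 CPM in the males and 12981 and 11012 CPM in the females in control livers, and at 971 and 358 CPM in the males and 166 and 98.0 CPM in the females in fasted livers. That was 3.45% of control, with -5.28 (SE 0.590, adjusted p = 9.60e-10), and its lowest share was at this last time. Scd1 has close relatives in the genome, and how reads shared between them were counted is not given in the sources used here.

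Thrsp (chromosome 7, 97412938 to 97417730, minus strand) encodes Spot 14, a small protein that promotes lipogenesis and responds to thyroid hormone and carbohydrate. In control livers at CT40 it was at 1539 and 1433 CPM in the males and 1722 and 1713 CPM in the females. In fasted livers it was at 26.1 and 22.9 CPM in the males and 42.5 and 8.76 CPM in the females, far below every control. The fall was -5.99 (SE 0.648, adjusted p = 4.04e-10) and left 1.57% of control. Its level dropped between CT16, with a fasted mean of 386 ± 73.2 CPM (SD, n = 4), and CT20, with 26.0 ± 11.7 CPM (SD, n = 4). Pnpla3 (chromosome 15, 84167837 to 84187236, plus strand) encodes a lipid droplet protein under SREBP-1 control and was the least abundant of the 10 per kb. Its control livers at CT40 had 7.38 and 5.37 CPM in the males and 62.2 and 60.5 CPM in the females, and its fasted livers 0.205 and 0.108 CPM in the males and 0.269 and 0.0737 CPM in the females. The fasted mean was 0.484% of control, with -6.89 (SE 0.708, adjusted p = 1.19e-10). The fasted values rest on few reads, 1 to 115 counts per library with a median of 7.5 from CT12 on, against 10 to 3340 in control livers, so its folds are less exact than those of the other 9 genes.

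Each time was tested by itself, and the order of the calls depends on the error of each gene as well as on its fall. A fit that leaves out a replicate of a sex keeps a lone liver of that sex per treatment and time. Its spread therefore comes from the other sex, and a changed count under it does not show that single livers carry the result. At CT8, with food present in both groups, 0 of the 10 genes differed (1.33% of all genes did in either direction). Without replicate 2 of the females 5 genes were called lower at CT8, and without replicate 1 of the females Acacb was called higher there, by 0.71 (adjusted p = 0.0362). At CT12, 2 h after food removal, 5 genes were lower, Srebf1, Fasn, Acaca, Elovl6 and Pnpla3, when 0.684% of all genes were. Thrsp, not called at CT12 (adjusted p = 0.367), was by then at 47.5% of control, with no overlap of the groups, and Acly at 41.0%, against 49.1% with overlap for Acaca. The CT12 count fell to 0 when replicate 1 or replicate 2 of the males was left out, and it was 0 in males alone and 2 in females alone. Counts then rose to 7 genes at CT16 (11.9% of all genes), with Acly and Thrsp added, and to 8 at CT20 (19.1%), with Scd1 added. They were 8 at CT24 (11.9%), 9 at CT28 (11.1%), 10 at CT32 (9.30%), 9 at CT36 (14.0%), 10 at CT40 (21.2%) and 8 at CT44 (20.7%). With all livers, none of the 10 was called higher at any time. Without replicate 1 of the males the count was 4 at CT24 and 5 at both CT28 and CT32, and without replicate 2 of the males it was 4 at CT16 and 6 at CT32. The share of control left at CT20, 10 h after food removal, was 2.17% for Pnpla3, 4.53% for Thrsp, 6.87% for Acly and 7.24% for Srebf1. For Pnpla3 these shares follow the females, whose levels were far higher: at CT12 it was at 29.7% in males and 4.21% in females, and the fit, which weights the sexes equally, gave -3.17 (SE 0.580, adjusted p = 0.00135). At CT20 the share was 13.3% for Fasn, 20.1% for Elovl6, 26.8% for Scd1 and 35.6% for Acaca. At CT12 the share was larger in males than in females for each of the 10 genes. It was 61.0% and 18.4% for Fasn, 82.8% and 30.0% for Acly, 67.4% and 19.1% for Elovl6 and 125% and 45.6% for Scd1. At CT20 it was 44.3% and 10.6% for Elovl6 and 43.8% and 13.0% for Scd1, while Acacb went the other way, with 90.8% and 106%.

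**Figure D2:**
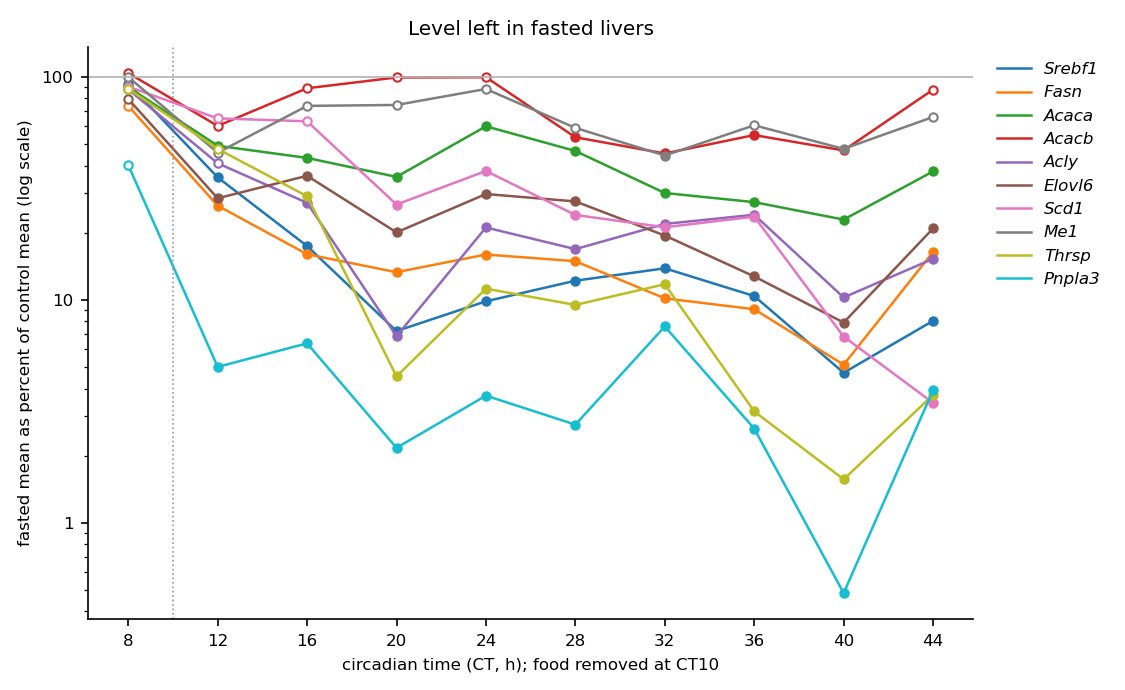
Fasted mean as a percent of the control mean at the same circadian time (log scale, n = 4 livers each), 1 line per gene, with filled points where the adjusted p is under 0.05 and open points elsewhere. Pnpla3 is at 40.2% at CT8, 5.00% at CT12 and 0.484% at CT40, while Acacb is still at 99.6% at CT24.

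With food, mean levels were highest at or after subjective dusk, when mice begin to eat. The highest control mean was at CT12 for 9 of the 10 genes, and for Pnpla3 it was at CT40. In control males alone it was at another time for Scd1 (12286 CPM at CT28, 7300 at CT12), Acacb, Acly and Me1. At CT36, the next dusk, control means were 7785 CPM for Scd1 and 472 for Acly, against 14891.5 and 1445 at CT12. For Thrsp they were 1186 CPM at CT36 and 2127 at CT12. Thrsp had the largest fitted cycle. Its control mean went from 2127 ± 371 CPM (SD, n = 4) at CT12 to 217 ± 101 CPM (SD, n = 4) at CT24, and back up to 1602 ± 140.1 CPM (SD, n = 4) at CT40. Fasted livers had 22.1 ± 14.9 CPM (SD, n = 4) at CT28 and 71.9 ± 32.5 CPM (SD, n = 4) at CT32. They were back at 25.1 ± 13.9 CPM (SD, n = 4) by CT40, with no second rise of the control size. A rhythm of 24 h was called in 7 of the 10 genes in control livers, against 41.8% of all genes. The sizes from trough to peak, on the log2 scale, were 3.31 for Thrsp with a fitted peak at CT13.9, 2.43 for Pnpla3 and 2.21 for Elovl6. Fasn, Acacb, Acaca and Srebf1 were called too, with 1.52, 1.16, 1.06 and 0.91. Acly, Me1 and Scd1 were not.

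In fasted livers, with a linear change over time allowed, 6 genes were called rhythmic (47.1% of all genes), and 3 genes, Srebf1, Acly and Acacb, differed in rhythm between treatments (23.2%). Between CT8 and CT12 the fasted mean fell in Srebf1 and Pnpla3 and rose in the others, for example in Thrsp from 369 to 1010 CPM. From CT12 on it was highest at CT12 for every gene but Acacb. The same tests were therefore repeated without these first times, over CT20 to CT44 alone, a choice made after seeing the data. The fasted rhythm of Thrsp then shrank from 3.31 to 1.56 but was still called, against 3.10 in control livers over the same times. Its fitted peak was at CT10.1 in fasted and CT13.9 in control livers. Fasn and Elovl6 were no longer called rhythmic in fasted livers, at 0.32 and 0.36, whereas in control livers they were called, at 1.13 and 1.48. Over these times 6 fasted genes were called (31.4% of all genes), among them Acaca and Me1, which were not called from CT12 on, with 0.46 and 0.48, and Acacb with 1.76 and a peak at CT19.2. The treatments differed in 6 genes, Srebf1, Acly, Acaca, Acacb, Elovl6 and Thrsp (15.7%), and not in Fasn (adjusted p = 0.0729). With replicate numbers as a block the Acly difference from CT12 on was not called (1.24, adjusted p = 0.0516). The main count of 3 differing rhythms fell to 0 without replicate 2 of the females and to 1 without replicate 1 or replicate 2 of the males.

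Night was also compared with day, as the mean of CT16, CT20, CT40 and CT44 minus that of CT28 and CT32. Dusk itself, CT12 and CT36, is on neither side. This difference therefore cannot measure the peak that most control means had at CT12. In control livers 3 genes were higher at night, Pnpla3 by 1.93 (SE 0.344), Thrsp by 1.22 (SE 0.338) and Acacb by 0.82 (SE 0.202) on the log2 scale (10.4% of all genes were higher). Without replicate 2 of the males the count was 1, and without replicate 1 of the females it was 6. In fasted livers Acacb alone was higher at night, by 1.45 (SE 0.209) (16.3% of all genes), and Srebf1 and Scd1 were lower, with -0.41 (SE 0.163) and -0.76 (SE 0.294) (19.1%). With replicate numbers as a block the Scd1 value was not called (-0.69, adjusted p = 0.0615). It turned to 0.14 without replicate 1 of the females, and the fasted count was 1 without either male replicate. The night difference itself differed between treatments in 0 of the 10 genes (17.3% of all genes in either direction), by edgeR, with 3 of the 10 at an unadjusted p under 0.05. DESeq2 called 1, and edgeR called 3 without replicate 1 of the females and 4 without replicate 2 of the females. With the second night alone, again chosen after seeing the data, 3 genes had a lower night minus day value in fasted than in control livers (8.38% of all genes): Scd1 with -2.59 (SE 0.499, adjusted p = 2.11e-04), Thrsp with -2.15 (SE 0.530, adjusted p = 0.00334) and Srebf1 with -1.05 (SE 0.270, adjusted p = 0.00495). Of these, Thrsp alone was called higher at night in control livers, 1.21 in control against -0.94 in fasted livers. Scd1 was at -0.081 in control and -2.67 in fasted livers, and Srebf1 at 0.091 and -0.96, and both were called lower at night in fasted livers alone.

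The same phase was compared 1 day apart. In control livers 0 of the 10 genes differed between the second night (CT40 and CT44) and the first (CT16 and CT20), and 0.0236% of all genes did. None of the 10 had an unadjusted p under 0.05 there, and without the filter on low counts 2 were called. In fasted livers 7 genes were lower in the second night (15.4% of all genes). Scd1 went from 1633 to 9717 CPM in the first night, median 5899, to 70.3 to 1294 CPM in the second, median 266, without overlap between the 8 livers of each. Its difference was -3.82 (SE 0.389). Thrsp fell by 2.23, Elovl6 by 1.38 and Srebf1 by 1.09 on the log2 scale, and Fasn, Acacb and Acaca by 0.78, 0.68 and 0.60. The change from first to second night differed between treatments in 4 genes (7.25% of all genes were lower): Scd1 with -3.61 (SE 0.506, adjusted p = 2.75e-06), Thrsp with -2.21 (SE 0.530, adjusted p = 0.00331), Elovl6 with -1.05 (SE 0.365, adjusted p = 0.0462) and Srebf1 with -0.89 (SE 0.270, adjusted p = 0.0212). Without replicate 1 or replicate 2 of the males this count was 1 and that within fasted livers was 4, and without replicate 2 of the females it was 7. With replicate numbers as a block the Elovl6 value was -1.05 (adjusted p = 0.0526).

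The sexes, as titled, differed in the fed level and in the fall. In control livers 7 of the 10 genes were higher in females, against 20.6% of all genes. Pnpla3 differed most, by 3.51 (SE 0.245) on the log2 scale. From CT12 on, control males had 0.289 to 7.38 CPM with a median of 1.32, and control females 1.5 to 62.2 CPM with a median of 12.7, with overlap. Elovl6 was higher in females by 1.13 (SE 0.164), Fasn by 1.02 (SE 0.162), and Acaca, Acly, Acacb and Srebf1 by 0.65, 0.61, 0.54 and 0.40. The Srebf1 call was lost with replicate numbers as a block (0.31, adjusted p = 0.116). The fall with fasting was deeper in females in 4 genes (7.02% of all genes). Scd1 fell by 1.36 (SE 0.128) in males and by 3.49 (SE 0.318) in females on the log2 scale, a difference of -2.13 (SE 0.331, adjusted p = 2.86e-05). Fasted males had 358 to 10392 CPM with a median of 3619.5, and fasted females 70.3 to 11477 CPM with a median of 1319. The differences for Pnpla3, Elovl6 and Acly were -1.94 (SE 0.598), -1.24 (SE 0.244) and -0.73 (SE 0.213). Without replicate 1 or replicate 2 of the males the count of 4 became 1, and without replicate 1 of the females it became 6. The SE of the fall was larger in females than in males for each of the 10 genes, for example 0.231 against 0.0907 for Fasn.

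**Figure D3:**
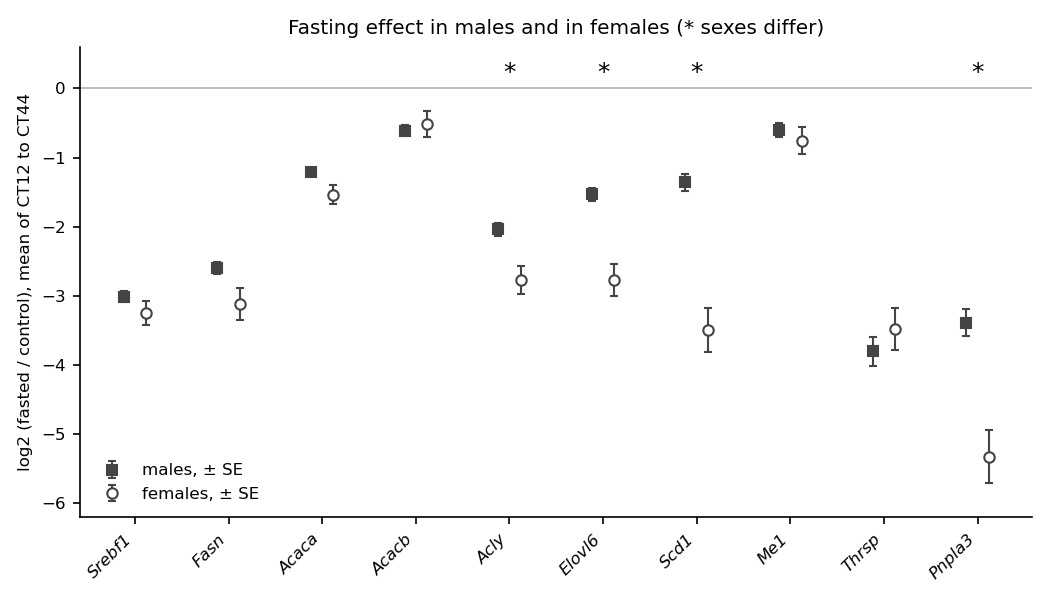
Mean fasting effect of CT12 to CT44 on the log2 scale for each gene, with squares for males, open circles for females (18 livers per treatment and sex, fitted by sex) and bars for the SE. Asterisks mark Acly, Elovl6, Scd1 and Pnpla3, whose effects differ between the sexes.

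Counts per exon bin gave a readout of the same genes that gene totals do not hold. Bin usage relative to the rest of the gene changed with fasting in 5 of the 10 genes by the test per gene (Simes' method), Srebf1, Acaca, Acacb, Acly and Scd1, against 14.3% of 13889 genes tested. In Fasn, 1 bin passed on its own, but the gene did not. The count was 3 without replicate 2, 2 with at least 10 counts in every library and 4 with limma, which ended 5 of 13 calls of single bins, among them Acly bin 018 and Scd1 bin 013. Changes of a bin relative to its gene are given on the natural log scale of the fit, not as log2. In Srebf1 the first exon of transcript Srebf1-201, bin 044 (chromosome 11, 60220453 to 60220604), rose relative to the gene by 1.30 (adjusted p = 4.12e-38). The first exon of Srebf1-207 and Srebf1-208, bin 042 (60210336 to 60210392), fell relative to the gene by 0.55 (adjusted p = 3.22e-10). As background, SREBP-1a begins at the upstream first exon and SREBP-1c, the main form of liver, at the downstream one. The promoters printed above as upstream and downstream lie at the 5′ ends of these exons.

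Both first exons lost counts, the downstream one more. The downstream exon (bins 042 and 043, 130 bases) had 35.0 to 296 CPM per kb in control livers from CT12 on, median 98.5, and 0.324 to 63.7 in fasted livers, median 5.97, or 6.06% of the control median. The upstream exon (152 bases) had a median of 8.48 CPM per kb in control and 3.47 in fasted livers, or 40.9%. Per base, the upstream exon made up 4.48% to 8.44% of both in control livers at CT20 and 43.4% to 62.1% in fasted livers, without overlap. At CT12 the fasted livers were still at 6.62% to 9.71%, against 3.93% to 6.05% in control livers. At CT8, with food, the shares were 7.30% to 12.7% in the control group and 7.06% to 16% in the other. The fasted shares rest on as few as 2 downstream counts per library, and at CT40 they ran from 24.5% to 93.0%. At that time 3 of the exon columns were matched best by another library of their own group, so the sexes were not told apart there.

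**Figure D4:**
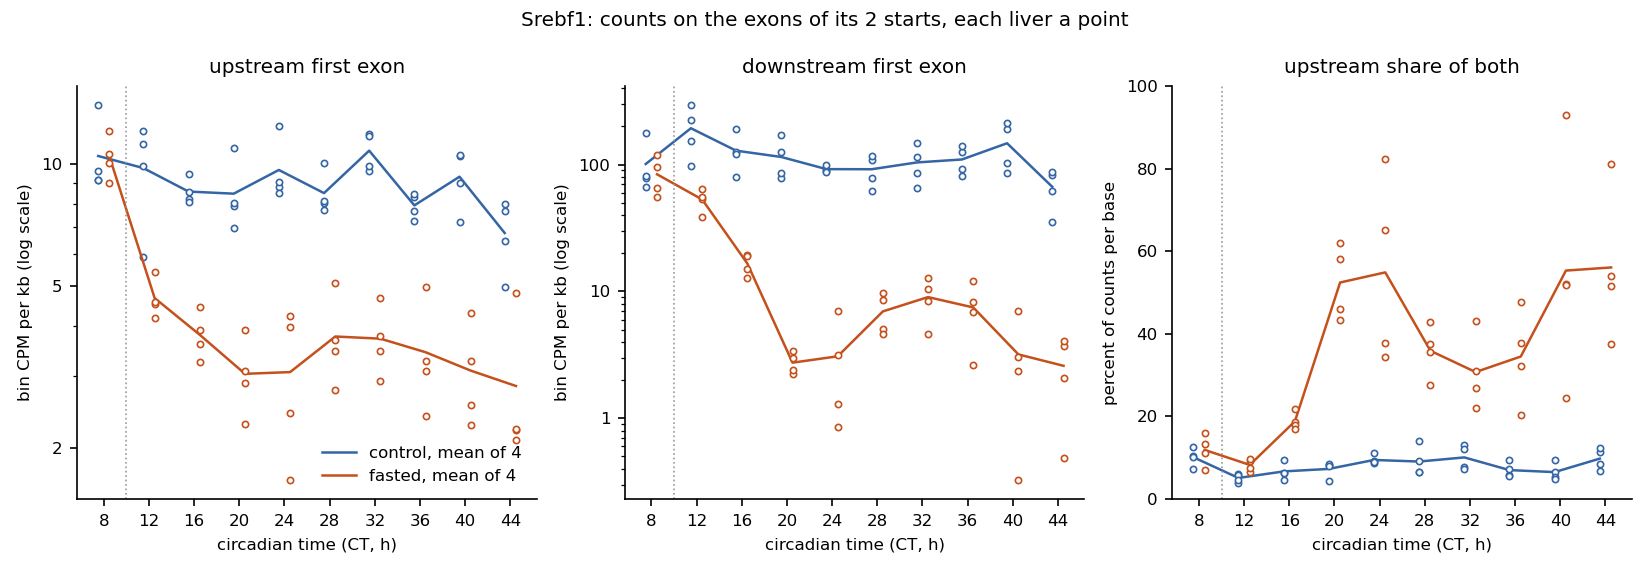
Counts on the upstream and downstream first exons of Srebf1 as bin CPM per kb (log scale), and the upstream share of both in percent, against circadian time, with 1 point per liver and lines for the mean of 4. The downstream exon falls further, and the mean upstream share in fasted livers reaches 52.4% at CT20 against 7.30% in control livers.

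Bin 001 of Acacb (chromosome 5, 114146535 to 114146825), the first exon of Acacb-202, rose from a median of 0.409% to 1.57% of the gene's counts. It rose by 1.19 relative to the gene (adjusted p = 1.11e-30), on the natural log scale like the other bin changes below. Its median level was 1.19 CPM in control and 2.39 CPM in fasted livers. Bin 017 of Acacb did not pass the test (adjusted p = 0.217). In Acaca the internal exons of bins 047 (84300421 to 84300465) and 048 (84307117 to 84307158) fell by 2.37 and 0.89 relative to the gene, but bin 047 ranged from 0 to 0.791% of the gene in control livers as well. These bins rest on medians of 1 and 7.5 counts in fasted livers, against 48 and 75.5 in control livers. In Acly, bins 040 and 018 rose relative to the gene by 2.25 and 1.25 on medians of 8 and 4 counts in fasted livers. In Scd1, bin 013 rose relative to the gene by 0.43, while its median level was 2.67 CPM in control and 0.721 CPM in fasted livers, and bin 012 did not pass the test (adjusted p = 0.402). The file gives bins by number alone, and positions follow from the GENCODE M21 exons of genes with the same number of bins.

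The rest of the pathway moved less uniformly, in lists chosen with earlier results of these data known. Of 13 genes that bring glucose to acetyl-CoA and NADPH, 12 were lower and 1 higher in the mean of CT12 to CT44 (32.9% and 29.5% of all genes), with a median of -0.75. Acss2, which makes acetyl-CoA from acetate, Pklr, the liver pyruvate kinase, and Pgd, an NADPH source of the pentose phosphate path, fell by 2.10 (SE 0.116), 1.89 (SE 0.147) and 0.93 (SE 0.0506).

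Of 15 regulators of SREBP-1 and ChREBP, 5 rose and 7 fell (29.5% and 32.9% of all genes did), with a median of -0.03. Insig1 and Insig2, which hold SREBP in the endoplasmic reticulum, went in opposite directions. Insig1 was at 423 CPM in the control median and 54.5 in the fasted, a fall of 2.69 (SE 0.0822). Insig2 was at 172 CPM and 586, a rise of 1.82 (SE 0.0729). Mid1ip1, a relative and partner of Spot 14, fell by 2.89 (SE 0.0796), Mlxipl, which encodes ChREBP, by 1.22 (SE 0.0589), and Nr1h3, which encodes the oxysterol receptor LXRα, by 0.17 (SE 0.0228). Of 11 other genes of elongation and desaturation, 3 rose and 5 fell, beside the same 29.5% and 32.9%, with a median of -0.15. Scd2, Elovl1 and Fads1 fell by 1.32 (SE 0.111), 0.85 (SE 0.0423) and 0.85 (SE 0.0651), and Hacd3, a dehydratase of the elongation cycle, rose by 0.62 (SE 0.0290).

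**Figure D5:**
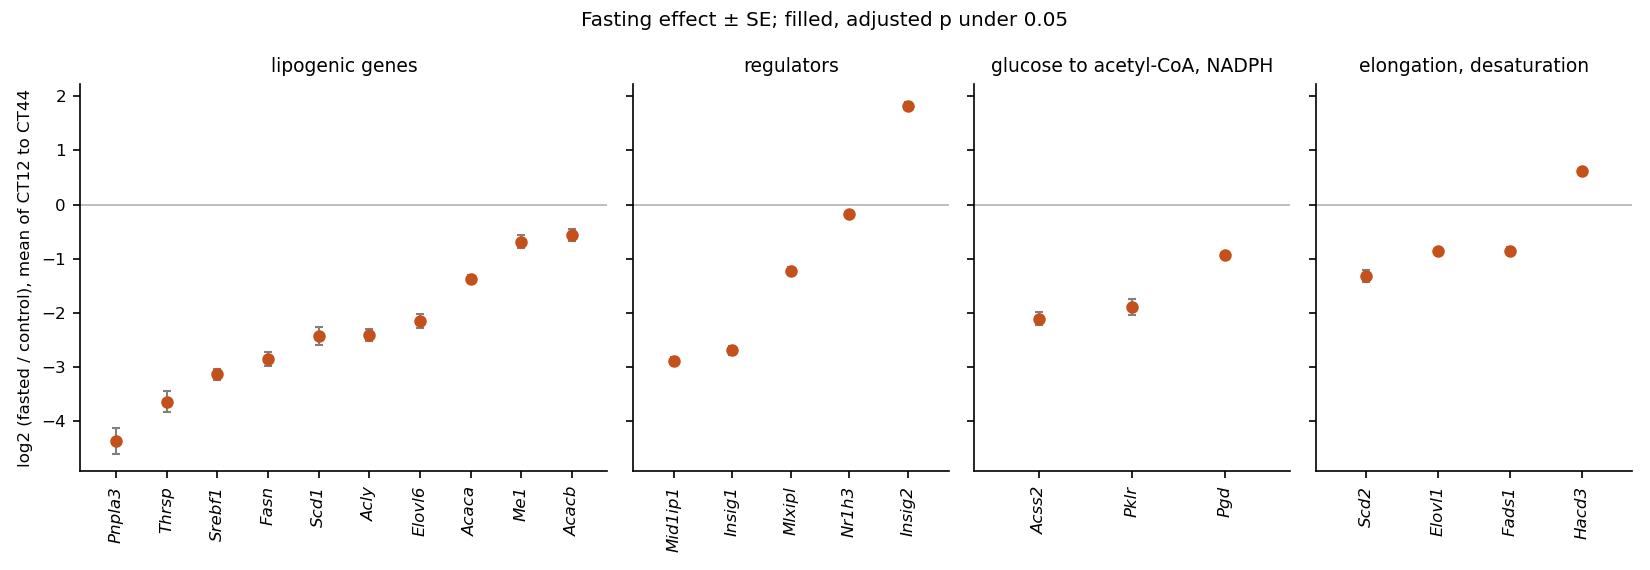
Mean fasting effect of CT12 to CT44 on the log2 scale, with its SE, for the 10 lipogenic genes and for the genes of the 3 lists named in the text, 1 point per gene in order of size, filled where the adjusted p is under 0.05. All 10 lipogenic genes lie below 0, and the regulators shown spread from Mid1ip1 at -2.89 to Insig2 at 1.82.

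Across the 80 libraries, genes whose log2 CPM followed Srebf1 closely, ranked among 21186 others, were Mid1ip1 (Pearson r = 0.965), Sc5d (0.945), Acly (0.942) and Sqle (0.942). Between the 10 genes r lay between 0.294 and 0.963 over 45 pairs, and it was lowest against Srebf1 for Acacb (0.346). These values describe the libraries, which share treatments and times, and carry no test. Per kb of exon, Scd1 was the most abundant, with a control median of 2096 CPM per kb and a range of 872 to 6449. Thrsp followed with 328, and the next, Fasn with 115 and Acly with 107, had overlapping ranges. Srebf1 stood at 71.2, and Acaca and Pnpla3 were lowest, with 10.4 and 2.11.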

How the data were processed

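Poly(A) RNA of 80 livers was sequenced as stranded libraries. The authors deposited raw counts per gene and raw counts per exon bin, whole numbers without normalization, both used here. They also deposited gene values scaled by 1 factor per library, which were not used. The submitters' processing notes name Trimmomatic, HISAT2, DESeq2 and GRCm39, without roles or versions. Groups follow the titles, which disagree with other labels as described. The article is a review without methods for this experiment, so the design was taken from the labels. The members and lists were chosen with earlier results of these data known.

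Counts were filtered with filterByExpr, scaled by TMM and fitted with edgeR 4.0.16 (quasi-likelihood, R 4.3.3), with 1 mean per treatment, time and sex (40 means). Contrasts weighted the sexes equally, with Benjamini-Hochberg adjustment over all genes tested and calls at an adjusted p under 0.05. Rhythms were a cosine and a sine of 24 h with sex, over 40 control or 36 fasted libraries from CT12, and their difference over 72. Exon usage was tested with diffSpliceDGE and Simes' method, leaving out 5 rows that name no bin (8.28% to 25.9% of each column). The tests of means, rhythm and exon usage, but not the fasted rhythm, were tested on simulated data. All 10 members, the 4 genes of each list with the largest change and a fixed few were named, with the 2 bins of smallest p per gene called. A few genes that this rule would name are not reported here. Replicates of a group were compared for duplicates, and the smallest chi-square per degree of freedom was 14.8. Alternatives were other scalings, filters, limma 3.58.1, DESeq2 1.42.0, single sexes, each replicate left out, a replicate block and an adjusted p of 0.01. Depth was 25534901 to 59927771 counts per library, and among the members Pnpla3 had the fewest counts.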

Additional observations from a re-analysis of the deposited data

Results flagged for a closer look

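Each of the 200 groups of 4 livers (10 genes, 20 groups) was searched for a liver far from the other 3 by Dixon's criterion, which chance meets in about 1 in 20 groups of like livers. These groups pool both sexes, and 7 of the 10 genes were higher in control females, so that rate need not hold here. The criterion was met in 15 groups by 9 libraries, all of them females, with these levels against the range of the other 3. For Srebf1 these were female 1 of control CT8 at 668 CPM against 315 to 371 and female 1 of fasted CT40 at 43.1 CPM against 23.6 to 26.7. For Fasn these were female 1 of control CT28 at 2394 CPM against 811 to 929 and female 2 of fasted CT8 at 2502 CPM against 574 to 744. For Acaca these were female 2 of control CT20 at 313 CPM against 144 to 165, female 1 of control CT28 at 246 CPM against 144 to 146 and female 2 of fasted CT8 at 305 CPM against 134 to 148. For Acacb this was female 1 of fasted CT12 at 461 CPM against 195 to 214. For Acly this was female 1 of control CT24 at 613 CPM against 341 to 355. For Elovl6 these were female 2 of control CT16 at 1095 CPM against 295 to 324 and female 2 of fasted CT40 at 24.5 CPM against 39.3 to 41.1. For Scd1 this was female 1 of control CT24 at 15136 CPM against 4265 to 5563. For Pnpla3 these were female 1 of control CT8 at 23.8 CPM against 0.436 to 3.07, female 2 of control CT16 at 44.5 CPM against 2.38 to 5.45 and female 2 of fasted CT8 at 8.71 CPM against 0.356 to 1.77. All but Elovl6 in fasted CT40 were above the other 3.

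Differences between groups passed their own test in 7 genes (edgeR quasi-likelihood test). The change from first to second night was lower in fasted than in control livers by log2 values of -0.89 for Srebf1, -1.05 for Elovl6, -3.61 for Scd1 and -2.21 for Thrsp. The fall with fasting was deeper in females, with female minus male log2 values of -0.73 for Acly, -1.24 for Elovl6, -2.13 for Scd1 and -1.94 for Pnpla3. The rhythms differed between treatments by a curve with a size from trough to peak of 1.08 for Srebf1, 1.02 for Acacb and 1.23 for Acly on the log2 scale. Their causes were not tested.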

How the results depend on the processing

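All 10 genes were lower in the mean of CT12 to CT44 whichever replicate was left out. Counts of genes called moved as follows (count in the report, then under the alternative), and the cause was not tested. Without a filter on low counts, the fasting effects in the mean of CT12 to CT44 hardly moved, but their SEs were smaller for all 10 genes. Acacb and Acly were then called at CT12 on nearly unchanged estimates. The fasting effect at CT8 went from 0 to 1 and at CT12 from 5 to 9. Night minus day went from 3 to 6 in control, from 3 to 6 in fasted and from 0 to 7 for fasted minus control. Second minus first night went from 0 to 2 in control and from 4 to 9 for fasted minus control. The sex difference of the fasting effect went from 4 to 7. At an adjusted p of 0.01 there were 2 at CT12, 1 in night minus day, fasted, 2 in second minus first night, fasted minus control, 2 in the sex difference and 0 in the difference between rhythms. Males alone gave 0 at CT12 and 1 in night minus day, fasted minus control. Females alone gave 2 at CT12, 0 and 1 in night minus day in control and fasted livers, 2 and 1 in second minus first night in fasted livers and for fasted minus control, and 0 in the difference between rhythms. At least 10 counts in every library gave 1 in night minus day, fasted minus control, and 2 in exon usage. DESeq2 gave 1 and the second night alone 3 in night minus day, fasted minus control, and CT20 to CT44 alone gave 6 in the difference between rhythms; both time choices were added after seeing the data. Leaving out each replicate number of a sex in turn, with the lone library of that sex assumed to vary like the others, gave 0 to 5 at CT8, 0 to 7 at CT12, 4 to 7 at CT16, 4 to 8 at CT24, 5 to 10 at CT28 and 5 to 10 at CT32. It gave 1 to 6, 1 to 3 and 0 to 4 in night minus day (control, fasted, fasted minus control), 4 to 9 and 1 to 7 in second minus first night (fasted, fasted minus control), 1 to 6 in the sex difference, 0 to 3 in the difference between rhythms and 3 to 4 in exon usage.

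Beside 64 values of results called under no setting, single values that turned sign were, on the log2 scale, Acacb, fasting effect at CT8 (0.0088 with upper quartile scaling, 0.0050 with the replicate block, 0.35 in females), Acacb, fasting effect at CT12 (0.15 in males), Elovl6, night minus day, fasted (-0.16 in females, -0.50 with the second night alone), Fasn, night minus day, fasted (-0.030 with the second night alone), Pnpla3, night minus day, fasted (-0.053 with the second night alone) and Me1, night minus day, fasted minus control (-0.18 in females). Scd1 bin 013 turned sign too in exon usage (-0.073 on the natural log scale in males without CT40). Leaving out replicates gave values on both sides of 0 for Fasn, fasting effect at CT8 (-1.31 to 0.32), Acaca, fasting effect at CT8 (-0.61 to 0.21), Acacb, fasting effect at CT8 (-1.08 to 0.71), Elovl6, fasting effect at CT8 (-1.12 to 0.35), Pnpla3, fasting effect at CT8 (-2.15 to 0.46), Me1, fasting effect at CT16 (-0.64 to 0.024), Scd1, night minus day, fasted (-1.07 to 0.14), Scd1, night minus day, fasted minus control (-1.16 to 0.12), Thrsp, night minus day, fasted minus control (-1.81 to 0.033), Elovl6, second minus first night, control (-0.59 to 0.13) and Thrsp, sex difference of the fasting effect (-0.12 to 0.53).

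Deviations of same-numbered livers correlated by -0.056 to 0.249 over 20 pairs, 1 of them over 0.1. The numbers were therefore not treated as pairs, though low correlations cannot exclude a pairing. A replicate block moved no count by over 1.5 times and ended 4 calls: Scd1, night minus day, fasted (-0.69), Elovl6, second minus first night, fasted minus control (-1.05), Srebf1, sex difference in control livers (0.31) and Acly, difference between rhythms (1.24). Of values called in the report, 1739 kept direction and call under an alternative, 189 lost the call and 2 turned sign. Values of Pnpla3 in fasted livers rest on a median of 7.5 counts, and those of the Srebf1 first exons on as few as 2.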
